A study of Mus musculus with 8 samples.

Results

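Cell cycle and proliferation genes were followed in dendritic cells grown from mouse bone marrow, kept under low oxygen and given stem cell factor (SCF) or left in medium. The set is a list of 46 genes that runs from the cyclins and kinases of the G1 phase through DNA replication to mitosis, and its members were found by gene symbol. Of the 46, 44 had a probe set that carries their symbol alone, among 22180 genes so represented on the arrays. The intensity filter left 40 of these members, among 11351 genes tested. Rrm2 had 2 probe sets, and the one with the higher mean over all arrays was used, while the other members had 1 each. Ccnb1 and Ccne2, the genes of cyclin B1 and cyclin E2, had no such probe set and were not analysed here.

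All cells came from wild-type female C57BL/6 mice. Bone marrow cells grew for 7 days in 21% oxygen and 20 ng/ml of GM-CSF, the growth factor that turns them into dendritic cells. CD11c-bearing cells were taken out on magnetic beads to a stated purity of 98% and held for 2 days at 2% oxygen with the same dose of GM-CSF. In the SCF group the cells then received SCF at 100 ng/ml for 6 hours, and in the medium group they received none, so hypoxia and GM-CSF were common to both groups and no normoxic array was analysed here. Each group has 4 arrays, 1 from each of 4 experiments called BC, D2, E and I, and each experiment split 1 preparation of purified cells between SCF and medium. The number of mice behind an experiment is not given in the sources used here.

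A cell that enters division first makes D-type cyclins, whose kinases Cdk4 and Cdk6 release E2F transcription factors from their repressors. E2F factors switch on the genes that license and copy DNA. A later wave of genes, which the DREAM repressor complex can hold back, builds the mitotic kinases and the spindle. In GM-CSF cultures the proliferating cells are the bone marrow precursors, and dendritic cells largely leave the cycle as they mature. SCF is the ligand of Kit, a receptor tyrosine kinase that drives proliferation of blood progenitors and mast cells.

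Values are log2 of the deposited intensities, which were made with RMA, a method that corrects the background, puts the arrays on a common scale and summarises the probes of a probe set. Levels of different genes come from different probes and are not set against each other. The median intensity of the 8 arrays lay between 13.3 and 13.9 on the linear scale, and Pearson's r between any pair of arrays, across probe sets, lay between 0.9902 and 0.9949. Itgax, which encodes CD11c, stood at 10.02 ± 0.23 with SCF and 10.08 ± 0.12 in medium (mean ± SD, n = 4 each). H2-Ab1, a class II antigen-presentation gene, stood at 11.03 ± 0.04 with SCF and 10.99 ± 0.03 in medium. All 18 dendritic cell markers found on the arrays reached the filter, as against 1 of 12 mast cell and basophil markers, 1 of 11 lymphocyte markers and 3 of 10 neutrophil markers. Monocyte and macrophage markers also reached it in 13 of 13 cases, and progenitor markers in 8 of 12. These are bulk cultures, in which fewer dividing cells and less RNA of a gene per cell cannot be told apart. A set of 4 values below runs through experiments BC, D2, E and I in that order.

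The comparison of SCF with medium asked whether 6 hours of SCF altered this programme in hypoxic dendritic cells. In the paired limma fit, 0 of the 40 tested members reached an adjusted p below 0.05, and their adjusted p-values lay between 0.945 and 0.999. Of all 12668 probe sets tested, 0 (0%) passed. At an unadjusted p under 0.05 there was 1 member (2.5%), Bub1, beside 533 of all probe sets (4.21%). SCF arrays lay fully apart from medium arrays for 0 members, beside 123 of all probe sets (0.971%).

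The members did not share a direction. SCF minus medium was above 0 for 18 members and below 0 for 22, with a median of −0.0061 on the log2 scale and a range of −0.21 to 0.10. Over all probe sets the median was 0.00077 and the range −0.46 to 0.40. Only Bub1 had the same sign in all 4 experiments, which is 2.5% of the members and compares with 12.9% of all probe sets. The 95% interval of SCF minus medium lay within 1.25-fold in both directions for 39 members (97.5%), beside 90.9% of all probe sets, and Bub1 was again the exception. Several members lay near the intensity filter of 4.05, among them Cenpf (mean 4.05), Cdc45 (4.27), Ccna2 (4.41) and Kif11 (4.44). Signal over background is unknown there, so their intervals describe measured intensity and may not bound a difference in RNA. The median over members was below 0 in BC (−0.08) and E (−0.04) and above 0 in D2 (0.03) and I (0.05), so the experiments were split around 0.

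**Figure D1:**
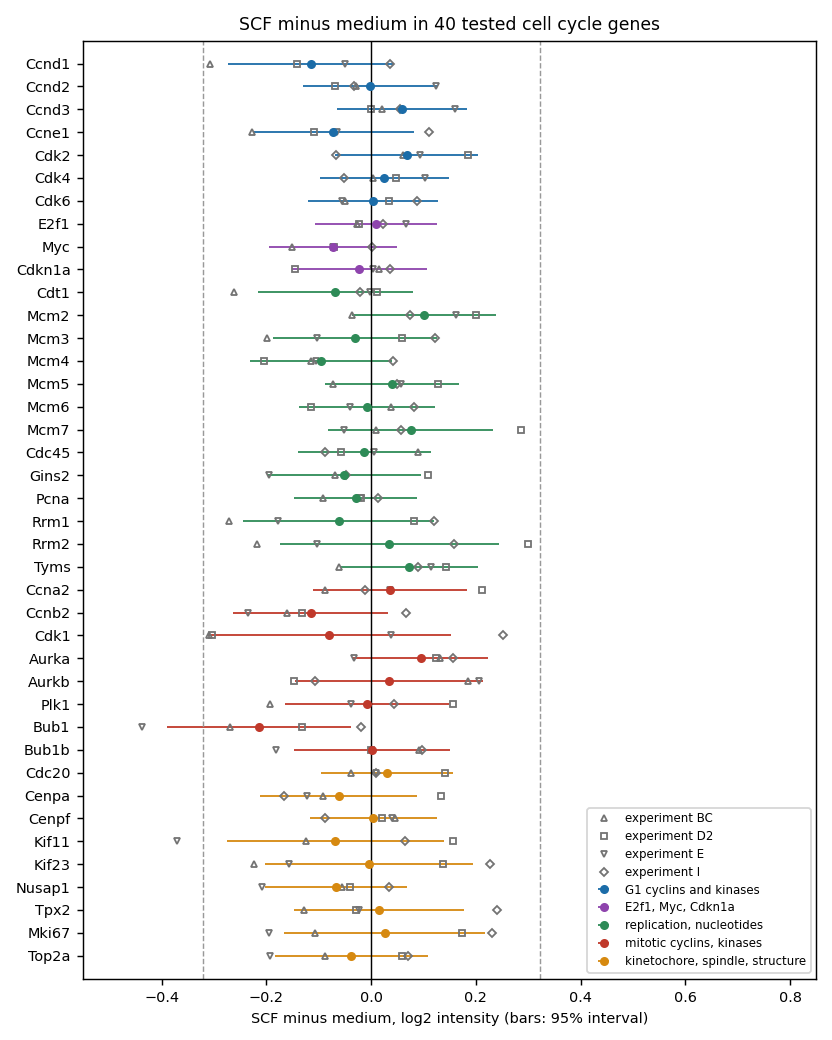
SCF minus medium on the log2 scale for the 40 tested members, grouped by role, with the 95% interval of the limma fit as a bar and the difference in each of the 4 experiments as an open symbol. Dashed lines mark a 1.25-fold difference. Every interval but that of Bub1 (−0.39 to −0.04) lies inside them, and for 39 of 40 members the experiments fall on both sides of 0.

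Some promoters of the members, but not all, carry the sequence letters of the 2 control systems of this programme, and 5 are printed to show them in place. The letters searched, on both strands, were TTTCGCGC, TTTGGCGC, TTTCCCGC and TTTGCCGC for E2F, TTTGAA and TTCGAA for the cell cycle genes homology region (CHR), which DREAM binds, and CCAAT, which NF-Y binds. Windows of 300 bases, 250 before and 50 after the start, came from the RefSeq promoter table of mouse build GRCm38.p6, which had an entry for 37 members. E2F letters stood in 8 of these (21.6%), beside 2.6% of the 27025 genes in the table. CHR letters stood in 17 (45.9%), beside 21.7%, and CCAAT in 27 (73.0%), beside 41.1%. All 17 windows with CHR letters also held CCAAT, a pair found in 8.61% of all genes.

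The shares differed between the members' roles. E2F letters were found in 6 of 12 genes of DNA replication, in 1 of 7 mitotic cyclins and kinases and in 0 of 11 genes of the kinetochore, spindle and chromosomes. CHR letters were found in 3, 6 and 8 genes of those groups. Of 5 G1 cyclins and kinases, 1 held E2F letters and 0 held CHR letters, and the 2 genes from the transcription factors and inhibitor held neither. Each sequence below holds the 160 bases before the RefSeq start of a gene on that gene's strand, with the letters of a motif in capitals. They are Mcm5 at chr8:75109349-75109508 (plus strand), Mcm6 at chr1:128359706-128359865 (minus), Cdk1 at chr10:69352913-69353072 (minus), Cdc20 at chr4:118437344-118437503 (minus) and Kif11 at chr19:37376222-37376381 (plus). The Mcm5 and Mcm6 promoters hold E2F and CCAAT letters, that of Cdk1 holds all 3 kinds, and those of Cdc20 and Kif11 hold CCAAT and CHR letters only.
Mcm5: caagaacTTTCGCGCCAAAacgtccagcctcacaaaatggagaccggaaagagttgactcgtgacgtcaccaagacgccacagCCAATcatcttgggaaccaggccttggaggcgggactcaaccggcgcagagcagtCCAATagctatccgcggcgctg
Mcm6: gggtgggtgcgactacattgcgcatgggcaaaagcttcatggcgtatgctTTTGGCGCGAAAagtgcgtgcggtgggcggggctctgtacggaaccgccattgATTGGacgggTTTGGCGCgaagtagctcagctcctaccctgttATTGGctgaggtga
Cdk1: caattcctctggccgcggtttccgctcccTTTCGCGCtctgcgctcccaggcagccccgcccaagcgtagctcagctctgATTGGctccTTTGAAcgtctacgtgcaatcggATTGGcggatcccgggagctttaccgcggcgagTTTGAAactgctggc
Cdc20: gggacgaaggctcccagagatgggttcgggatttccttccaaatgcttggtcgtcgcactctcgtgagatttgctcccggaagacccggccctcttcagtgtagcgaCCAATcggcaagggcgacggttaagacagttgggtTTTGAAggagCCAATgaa
Kif11: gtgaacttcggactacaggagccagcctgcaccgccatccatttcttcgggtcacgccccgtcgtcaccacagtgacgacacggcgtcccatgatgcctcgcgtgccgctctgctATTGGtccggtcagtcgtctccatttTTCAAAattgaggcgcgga
In Mcm5 the capitals nearest the far end are a pair of overlapping E2F matches, which begin 153 and 149 bases before the start. The printed CHR letters nearest the start begin 15 bases before it in Cdk1, 18 in Cdc20 and 19 in Kif11. In each of these 3 genes a CCAAT or its complement lies farther upstream, beginning 48, 53 and 45 bases before the start. Cdk1 also holds CHR letters at 71 and a CCAAT complement at 80. Cdc20 holds a further CCAAT at 8, between its CHR letters and the start. Matches describe letters only and were not tested as binding sites.

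Genes of either promoter kind stood close to 0 in the SCF comparison. The median SCF minus medium was −0.0088 for the 7 tested members with E2F letters (range −0.08 to 0.08) and −0.0061 for the 16 with CHR letters (range −0.21 to 0.10). It was 0.0035 for the 11 with neither (range −0.07 to 0.07). Cdk1 and Mcm7 belong to both of the first groups.

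Among the G1 cyclins and their kinases, 4 of 7 tested genes were above 0 with SCF and 3 below, with a median SCF minus medium of 0.0035 on the log2 scale. Ccnd1, the gene of cyclin D1, which couples growth factor signals to Cdk4 and Cdk6, measured 7.04, 7.56, 7.96 and 7.72 with SCF, against 7.35, 7.70, 8.01 and 7.69 in medium. The groups overlapped widely, since both arrays of BC were low and both arrays of E were high. Ccnd1 differed by −0.12 (SE 0.07, 95% interval −0.27 to 0.04, limma adjusted p = 0.945). SCF arrays of Ccnd1 were the lower ones in 3 of 4 experiments, and the difference was −0.05 without BC and −0.17 without I.

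Ccnd2, the gene of cyclin D2, measured 9.83, 9.82, 9.94 and 9.86 with SCF, against 9.85, 9.89, 9.82 and 9.89 in medium. All 8 arrays lay close together, and the difference was −0.0016 (95% interval −0.13 to 0.13). Ccnd3, the gene of cyclin D3, measured 8.88, 8.57, 8.78 and 8.76 with SCF, against 8.86, 8.57, 8.62 and 8.70 in medium. Its groups overlapped, with BC high and D2 low in each of them, and SCF minus medium was 0.06 (95% interval −0.07 to 0.18). The 3 D-type cyclins thus gave fitted values on both sides of 0, none of which passed.

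Cdk4, a kinase partner of the D cyclins, measured 8.87, 8.94, 8.88 and 8.85 with SCF, against 8.87, 8.89, 8.78 and 8.90 in medium. The other partner, Cdk6, measured 8.68, 8.64, 8.72 and 8.92 with SCF, against 8.73, 8.61, 8.78 and 8.83 in medium. For both kinases the SCF arrays lay among the medium arrays, apart from the high SCF arrays of D2 for Cdk4 and of I for Cdk6. SCF minus medium was 0.03 for Cdk4 (95% interval −0.10 to 0.15) and 0.0035 for Cdk6 (95% interval −0.12 to 0.13).

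Ccne1, the gene of cyclin E1, which activates Cdk2 at the entry into S phase, measured 5.98, 6.05, 6.06 and 6.03 with SCF, against 6.21, 6.16, 6.13 and 5.91 in medium. The medium array of I lay below every SCF array and the other 3 medium arrays lay above them. SCF minus medium was −0.07 (95% interval −0.23 to 0.08), or −0.021 without BC and −0.13 without I. Cdk2 itself measured 7.69, 7.70, 7.52 and 7.71 with SCF, against 7.63, 7.52, 7.43 and 7.78 in medium, with E the lowest experiment in both groups. Its difference was 0.07 (SE 0.06, 95% interval −0.07 to 0.20).

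Of 2 transcription factors and 1 inhibitor, none passed, and the median SCF minus medium of the 3 was −0.022. E2f1, an activator of S-phase genes, measured 6.84, 6.86, 6.92 and 6.77 with SCF, against 6.87, 6.88, 6.85 and 6.75 in medium, and its groups overlapped. SCF minus medium was 0.0093 (95% interval −0.11 to 0.13). Myc, a growth-promoting transcription factor that growth factors induce early in many cell types, measured 6.49, 6.66, 6.82 and 6.34 with SCF, against 6.64, 6.73, 6.89 and 6.33 in medium. Both arrays of I were low and both of E high, and the groups overlapped. Myc differed by −0.07 (SE 0.05, 95% interval −0.19 to 0.05) and was lower with SCF in 3 of 4 experiments.

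Cdkn1a encodes p21, which blocks cyclin-dependent kinases and is held at high levels in many non-dividing cells. It measured 10.77, 10.58, 10.73 and 10.78 with SCF, against 10.76, 10.73, 10.73 and 10.74 in medium. Only the SCF array of D2 stood below the rest, and SCF minus medium was −0.02 (95% interval −0.15 to 0.11).

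**Figure D2:**
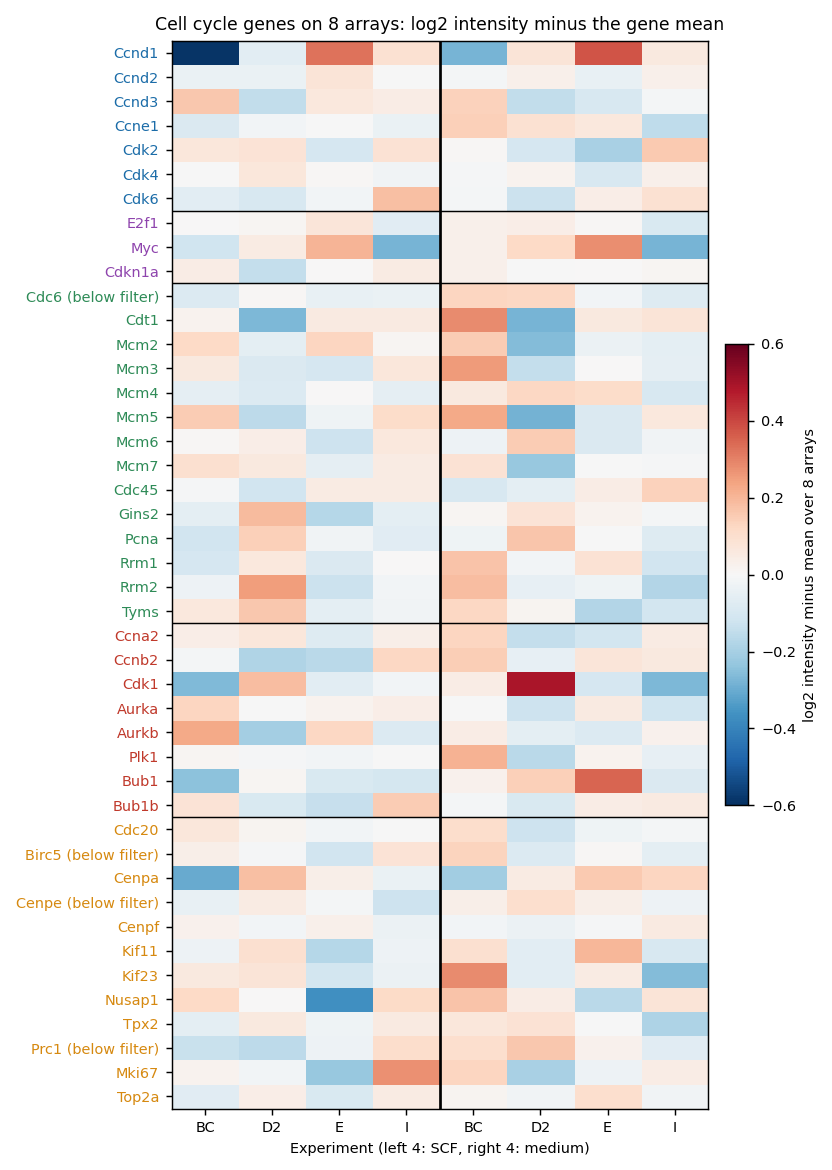
Log2 intensity of the 44 members on the 8 arrays, each gene set against its own mean, with SCF arrays left of medium arrays and genes grouped by role; the colour scale spans 0.6 on the log2 scale either way. No block of genes is shaded by treatment, while single genes such as Ccnd1 (low in BC, high in E), Myc (low in I) and Cdk1 (high in D2) lie on the same side of their mean in both arrays of that experiment.

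Of the 14 genes of replication licensing, the replicative helicase and nucleotide supply, 13 were tested, with 5 above 0, 8 below 0 and a median SCF minus medium of −0.013. Their fitted values ran from −0.10 to 0.10. Cdt1, which loads the MCM helicase on origins, measured 6.05, 5.76, 6.08 and 6.08 with SCF, against 6.31, 5.75, 6.09 and 6.11 in medium. D2 was the lowest experiment in both groups and the medium array of BC the highest of all, and the groups overlapped. SCF minus medium was −0.07 (95% interval −0.22 to 0.08), or −0.0040 without BC. Cdc6, the other loading factor, averaged 3.80 over the arrays and lay below the filter. It measured 3.71, 3.80, 3.75 and 3.75 with SCF, against 3.93, 3.92, 3.78 and 3.72 in medium.

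The 6 subunits of the MCM helicase pointed in different directions, with Mcm2, Mcm5 and Mcm7 above 0 and Mcm3, Mcm4 and Mcm6 below. Mcm2 measured 6.16, 5.99, 6.17 and 6.06 with SCF, against 6.20, 5.78, 6.01 and 5.98 in medium. It was higher with SCF in 3 of 4 experiments, in overlapping groups. Mcm2 had the highest fitted value among the members, 0.10 (SE 0.06, 95% interval −0.04 to 0.24, limma adjusted p = 0.945), and it was 0.07 without D2. Mcm5, whose promoter is printed above, measured 6.57, 6.25, 6.38 and 6.52 with SCF, against 6.64, 6.13, 6.33 and 6.47 in medium. D2 was the lowest experiment and BC the highest in both groups, and SCF minus medium was 0.04 (95% interval −0.09 to 0.17).

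The other subunits gave −0.03 for Mcm3, −0.10 for Mcm4, −0.0088 for Mcm6 and 0.08 for Mcm7. The partners of the helicase gave −0.01 for Cdc45 and −0.05 for Gins2. None of these 6 genes passed or kept 1 sign in the 4 experiments.

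Pcna encodes the sliding clamp of DNA polymerases and is a common proliferation marker. It measured 8.73, 8.99, 8.82 and 8.78 with SCF, against 8.82, 9.01, 8.84 and 8.77 in medium. D2 was the highest experiment in both groups, the groups overlapped, and SCF minus medium was −0.03 (95% interval −0.15 to 0.09). Rrm2, the S-phase subunit of ribonucleotide reductase, measured 4.62, 4.90, 4.52 and 4.64 with SCF, against 4.84, 4.61, 4.63 and 4.48 in medium. It was higher with SCF in D2 and I and lower in BC and E, so that the fitted 0.03 had a 95% interval of −0.17 to 0.24. Rrm1, the large subunit of the same enzyme, gave −0.06, and Tyms, which makes thymidylate, gave 0.07.

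The mitotic cyclins and kinases held the member with the smallest p. Of 9 listed genes 8 were tested, with 4 on either side of 0 and a median SCF minus medium of −0.0033. Bub1, a kinase of the spindle assembly checkpoint, measured 3.84, 4.10, 3.997 and 3.98 with SCF, against 4.11, 4.23, 4.43 and 4.001 in medium. In every experiment the SCF array was the lower one, yet the groups overlapped, since the medium array of I lay at the level of the SCF arrays. Means were 3.98 ± 0.11 with SCF and 4.19 ± 0.19 in medium (SD, n = 4 each).

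The fitted difference of Bub1 was −0.21 (SE 0.07, 95% interval −0.39 to −0.04), or 0.862-fold, with an unadjusted p of 0.0231 and a limma adjusted p of 0.945. It came to −0.14 without E and −0.28 without I. Bub1 also lay just above the intensity filter of 4.05, at a mean of 4.09. Bub1b, which encodes the checkpoint partner BubR1, measured 4.54, 4.36, 4.32 and 4.61 with SCF, against 4.45, 4.36, 4.50 and 4.51 in medium, and differed by 0.0017.

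Cdk1, the kinase that drives entry into mitosis, measured 6.46, 6.90, 6.66 and 6.70 with SCF, against 6.77, 7.21, 6.62 and 6.45 in medium. It was lower with SCF in BC and D2 and higher in E and I, and the medium array of D2 was the highest of all. SCF minus medium was −0.08, with the widest error among the members (SE 0.10, 95% interval −0.31 to 0.15). It came to −0.0047 without BC, −0.0065 without D2 and −0.19 without I. Ccnb2, the gene of cyclin B2, measured 5.72, 5.56, 5.58 and 5.86 with SCF, against 5.89, 5.69, 5.81 and 5.80 in medium. It was lower with SCF in BC, D2 and E, in overlapping groups. Its difference was −0.12 (SE 0.06, 95% interval −0.26 to 0.03, limma adjusted p = 0.945), or −0.08 without E and −0.18 without I.

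Ccna2, the gene of cyclin A2, which acts from S phase into early mitosis, measured 4.45, 4.48, 4.34 and 4.45 with SCF, against 4.54, 4.27, 4.30 and 4.46 in medium, and differed by 0.04. Aurka, the kinase of spindle poles, measured 5.16, 5.02, 5.05 and 5.06 with SCF, against 5.02, 4.90, 5.08 and 4.91 in medium. It was higher with SCF in BC, D2 and I, in overlapping groups. The fitted value was 0.09 (SE 0.06, 95% interval −0.03 to 0.22, limma adjusted p = 0.945).

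Aurkb, the kinase of the chromosomal passenger complex, measured 6.01, 5.58, 5.91 and 5.70 with SCF, against 5.83, 5.73, 5.70 and 5.81 in medium. It was higher with SCF in BC and E and lower in D2 and I, and SCF minus medium was 0.03 (95% interval −0.15 to 0.21). Plk1, a kinase with roles from mitotic entry to cytokinesis, measured 4.87, 4.85, 4.84 and 4.85 with SCF, against 5.06, 4.69, 4.88 and 4.81 in medium. The 4 SCF arrays of Plk1 lay almost at 1 level, inside the range of the medium arrays, and the difference was −0.0083 (95% interval −0.17 to 0.15).

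Of the 12 genes of mitotic exit, the kinetochore, the spindle and chromosome structure, 9 were tested, 4 above 0 and 5 below. Their median SCF minus medium was −0.0039 and the range −0.07 to 0.03. Mki67, the gene of the Ki-67 protein by which dividing cells are usually recognised, measured 5.12, 5.08, 4.87 and 5.38 with SCF, against 5.23, 4.91, 5.07 and 5.15 in medium. It was higher with SCF in D2 and I and lower in BC and E, and SCF minus medium was 0.03 (95% interval −0.17 to 0.22). Top2a, the topoisomerase that untangles replicated chromosomes, measured 4.42, 4.53, 4.40 and 4.54 with SCF, against 4.51, 4.47, 4.60 and 4.47 in medium. Its 8 values lay within a narrow band, with a difference of −0.04 (95% interval −0.18 to 0.11).

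Cdc20, an activator of the anaphase-promoting complex, measured 4.71, 4.66, 4.63 and 4.64 with SCF, against 4.75, 4.52, 4.62 and 4.63 in medium, and differed by 0.03. Kif11, the motor that pushes spindle poles apart, measured 4.41, 4.54, 4.27 and 4.41 with SCF, against 4.54, 4.38, 4.64 and 4.35 in medium, and differed by −0.07. In both genes, the promoters of which are printed above with CCAAT and CHR letters, the groups overlapped. The remaining tested genes of this group gave −0.06 for Cenpa, the centromeric histone, 0.0042 for Cenpf, a kinetochore protein, and −0.0039 for Kif23, a cytokinesis motor. Nusap1 and Tpx2, which bind spindle microtubules, gave −0.07 and 0.01.

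Birc5, Cenpe and Prc1 lay below the filter and have no test. Birc5, the gene of survivin, a partner of Aurkb, measured 3.33, 3.28, 3.17 and 3.37 with SCF, against 3.43, 3.21, 3.30 and 3.23 in medium. Cenpe, a kinetochore motor, ranged from 3.65 to 3.82 with SCF and from 3.74 to 3.87 in medium, and Prc1, which bundles the midzone of the spindle, from 3.76 to 4.02 with SCF and from 3.85 to 4.08 in medium. The groups overlapped in all 3 genes. Prc1 averaged 3.92, just under the limit of 4.05, and Cenpf averaged 4.05, just over it.

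Wider lists of cell cycle genes without these members gave 0 calls as well. In G1 and restriction point control, 37 of 43 listed genes were tested, 14 above 0 with SCF and 23 below, with a median SCF minus medium of −0.011. The smallest unadjusted p-values belonged to Lin9, a DREAM subunit, at −0.18 (SE 0.08), Cdkn2b, the gene of the inhibitor p15, at 0.10 (SE 0.05) and Cdc25a, an activating phosphatase, at −0.15 (SE 0.07). In DNA replication and nucleotide supply, 52 of 65 were tested, 17 above 0 and 35 below, with a median of −0.026. Uhrf1, which carries DNA methylation through replication, was the only named gene there above 0, at 0.22 (SE 0.08), higher in 4 of 4 experiments.

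Atad2, a chromatin ATPase, gave −0.16 (SE 0.06) and Dbf4, the activator of the Cdc7 kinase, −0.15 (SE 0.06), both lower in 4 of 4 experiments. Uhrf1, Atad2 and Dbf4 were named for their small p in these same pairs, a choice that favours 1 sign. Of all probe sets 12.9% kept 1 sign in the 4 experiments. In the replication list 3 of 52 genes had an unadjusted limma p under 0.05, beside 4.21% of all probe sets. In mitosis and cytokinesis, 40 of 76 genes were tested, 16 above 0 and 24 below, with a median of −0.020. The leading genes were Smc4, a condensin subunit, at −0.12 (SE 0.05), Gas2l3, a midbody protein, at −0.15 (SE 0.08) and Cdca8, the passenger protein borealin, at −0.10 (SE 0.06). Among p53 targets and antiproliferative genes, 25 of 29 were tested, 12 above 0 and 13 below, with a median of −0.0033. Phlda3, a p53-induced inhibitor of Akt, gave 0.12 (SE 0.06), Plk3, a stress-responsive kinase, −0.15 (SE 0.07) and Sesn2, a stress-induced inhibitor of mTORC1, 0.11 (SE 0.06). All these named genes had a limma adjusted p of 0.945.

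The 4 experiments were then compared with each other in the same fit, by the F test of the experiment terms, since each is a separate culture of marrow cells. Ccnd1 and Myc differed between experiments, which makes 2 of 40 members (5%), beside 424 of the 12668 probe sets (3.35%). At an unadjusted p under 0.05 there were 10 members (25%), beside 24.2% of all probe sets, so both shares stood near those of all genes. The 2 arrays of an experiment come from 1 preparation of cells, and the p-values measure only the spread between such arrays. Differences between preparations, between their mice and in the handling of their arrays cannot be told apart.

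Ccnd1 averaged 7.20, 7.63, 7.98 and 7.70 over the 2 arrays of each experiment, a span of 0.78 on the log2 scale (limma F test, adjusted p = 0.0290). BC, at 7.20, was lower than the mean of the other 3 experiments, 7.77, by a difference of −0.58 (SE 0.08, limma adjusted p = 0.0222). E, at 7.98, was higher than the other 3 at 7.51, a difference of 0.47 (SE 0.08, limma adjusted p = 0.0431). The contrasts of D2 and I did not pass (limma adjusted p = 0.972 for D2 and 0.571 for I). Ccnd1 was the 1 member called in BC (2.5%), where 2.34% of all probe sets were called, and the 1 member called in E, where 1.09% were. In the contrasts of D2 and I, 0 members passed, beside 0% and 0.474% of all probe sets.

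Myc averaged 6.57, 6.70, 6.85 and 6.34 (limma F test, adjusted p = 0.0412), a span of 0.52. I was the lowest, at 6.34 against 6.71 for the other 3, a difference of −0.37 (SE 0.06), and E the highest. In neither contrast did Myc pass (limma adjusted p = 0.0537 for I and 0.0572 for E). Ccnd1 and Myc were thus both high in E, while the lowest experiment was BC for Ccnd1 and I for Myc.

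Both calls rest on few arrays. The F test of Ccnd1 gave an adjusted p of 0.137 without BC, 0.0509 without D2 and 0.110 without E, and 0.0378 without I. That of Myc gave 0.0581 or 0.0651 when BC or D2 was left out, and 0.137 or 0.175 when E or I was. Ccnd2 and Ccnd3 did not follow Ccnd1, with means of 9.84, 9.86, 9.88 and 9.88 for Ccnd2 and 8.87, 8.57, 8.70 and 8.73 for Ccnd3, and neither passed (F test, limma adjusted p = 0.968 and 0.16).

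**Figure D3:**
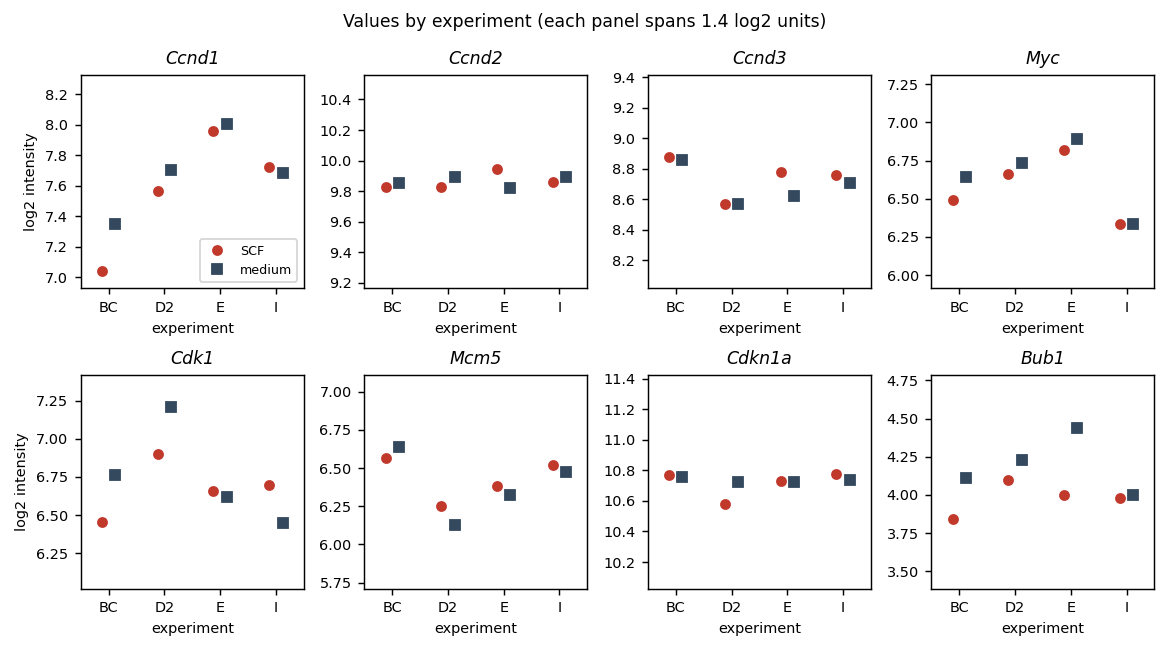
Log2 intensity of 8 members by experiment, with SCF cultures and medium cultures as separate points, SCF left of medium, on panels that each span 1.4 on the log2 scale. Ccnd1 spans 0.78 between experiment means and Myc 0.52, while Ccnd2 spans 0.04, and the distance between the SCF and the medium point of an experiment is smaller than the Ccnd1 span throughout.

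Some markers of other cell types also differed between experiments. Of 13 monocyte and macrophage markers on the arrays, all of which reached the filter, 5 passed the F test (38.5%), beside 3.35% of all probe sets. Above their own mean were 12 of the 13 in E, as against 2 in BC. Cd14, a receptor for bacterial lipopolysaccharide, averaged 4.78, 5.29, 6.01 and 4.78, and Fcgr1, a high-affinity antibody receptor, 7.93, 8.25, 8.70 and 7.69. Ccr2, a chemokine receptor of monocytes, averaged 5.29, 5.88, 6.38 and 5.33, the complement gene C1qb 7.32, 7.27, 7.95 and 7.23 and Ly6c2 5.66, 6.43, 6.96 and 7.01. The summed linear intensity of this list ranged from 3754 to 4839 in SCF arrays and from 4033 to 5148 in medium arrays.

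Ccnd1 shared the high level in E and the low level in BC with most of the monocyte and macrophage markers. The markers did not single out BC, since 3 of 13 were above their own mean in D2 and 6 in I. Fcgr1 and C1qb were lowest in I, and Ly6c2 was highest there. Of 12 progenitor markers 8 reached the filter and 2 passed (25%), beside 3.35% of all probe sets. Kit, which is also the receptor of SCF, had means of 6.88, 6.41, 6.65 and 6.96, and Sox4 had means of 6.81, 6.29, 6.13 and 6.53, both highest in BC or I. Summed progenitor intensity ranged from 501 to 608 in SCF arrays and from 509 to 594 in medium arrays. Cpa3, the 1 mast cell marker at the filter, passed the F test too, with means of 5.02, 4.01, 4.34 and 4.82, and the sum of its list ranged from 112 to 131 in SCF arrays and from 112 to 134 in medium arrays. In the other lists, 0 of 18 dendritic cell, 0 of 3 neutrophil, 0 of 1 lymphocyte and 0 of 1 erythroid and megakaryocyte markers at the filter passed. The dendritic cell list summed to 14136 to 14369 in SCF arrays and to 13801 to 14260 in medium arrays. In SCF minus medium, 14 of 18 dendritic cell markers were above 0, 11 of 13 monocyte and macrophage markers were below 0, and 0 of either list passed. The part of other cell types in the Ccnd1 and Myc differences was not tested.

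Among replication genes and mitotic cyclins and kinases, BC was often the highest experiment, while D2 was often the lowest but for some genes the highest. None of these genes passed, and a difference between groups of genes was not tested. BC was the highest experiment for 7 of 13 replication genes and D2 the lowest for 6, and 5 genes (38.5%) showed both. D2 was also the highest for 4 of the 13 (30.8%), and 7 of the 13 were above their own mean there. Among the mitotic cyclins and kinases, BC was the highest for 4 of 8 and D2 the lowest for 5, and 3 genes (37.5%) showed both. The other roles did not share this order. Both held for 1 of 9 genes of mitotic exit, kinetochore and spindle (11.1%), where D2 was the lowest for 2. They held for 1 of 7 G1 cyclins and kinases (14.3%) and 1 of the 3 transcription factors and inhibitor (33.3%). Over all members BC was the highest for 17 of 40 (42.5%) and D2 the lowest for 16 (40%), beside 31.7% and 32.2% of all probe sets. Both held for 11 members (27.5%), beside 1939 of all probe sets (15.3%). Mcm5 averaged 6.60, 6.19, 6.35 and 6.497 (F test, limma adjusted p = 0.0758), Cdt1 6.18, 5.76, 6.09 and 6.09 (adjusted p = 0.0922) and Mcm2 6.18, 5.88, 6.09 and 6.02 (adjusted p = 0.19). Pcna was among the replication genes with their highest mean in D2, with a span of 0.23 (adjusted p = 0.188).

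Single mitotic genes departed from this order, and none passed. Cdk1 averaged 6.61, 7.06, 6.64 and 6.57, highest in D2 (F test, limma adjusted p = 0.167). Nusap1 averaged 5.54, 5.42, 5.13 and 5.49, lowest in E (adjusted p = 0.0805), and Cenpa 6.30, 6.67, 6.65 and 6.60, lowest in BC (adjusted p = 0.113). Mki67 averaged 5.18, 4.996, 4.97 and 5.26 and Top2a 4.47, 4.50, 4.50 and 4.51, with adjusted p-values of 0.292 and 0.98. The proliferation markers in common use did not place the 4 preparations in 1 order, and none of them passed.

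Between experiments the members varied about as much as other genes. The median span of the 4 experiment means was 0.202 for members and 0.204 for all probe sets. A span of at least 0.4 was reached by 6 members (15%), Ccnd1, Myc, Cdt1, Mcm5, Cdk1 and Nusap1, beside 11.5% of all probe sets. The span was larger than the size of SCF minus medium for 39 members (97.5%), beside 96.1% of all probe sets, as a span over 4 means is mostly larger than 1 difference. The exception was Top2a, where both had nearly the same size, a span of 0.0383 and a difference of −0.0383. Among the 39, Mcm4, whose means spanned 0.13, differed by −0.10 with SCF, and Bub1 spanned 0.24 and differed by −0.21.

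**Figure D4:**
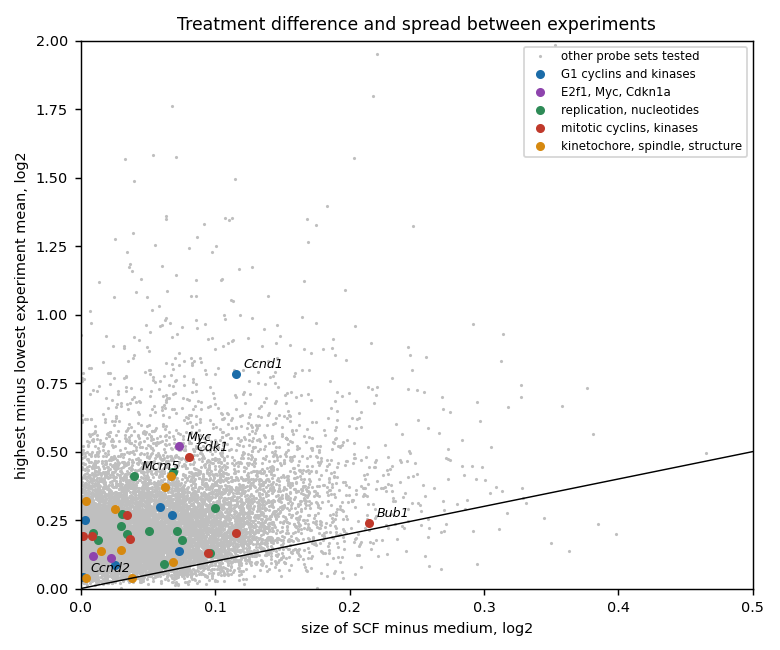
Span of the 4 experiment means (vertical axis) against the size of SCF minus medium (horizontal axis), both on the log2 scale, for all tested probe sets in grey and the members in colour, with a line of equality and 1 probe set outside the axes. Members lie within the grey cloud, with Ccnd1 (0.78) and Myc (0.52) highest among them and Bub1, with an SCF minus medium of −0.21, farthest to the right.

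In the wider lists, 5 genes passed the F test, in shares near the 3.35% of all probe sets. In G1 control 1 of 37 (2.7%) passed, Cdkn2b, with means of 7.64, 7.21, 7.06 and 7.54 (limma adjusted p = 0.0209), lowest in E where Ccnd1 was highest. In DNA replication 3 of 52 (5.77%) passed. They were Dck, a nucleoside salvage kinase, at 6.62, 6.99, 7.52 and 6.93 (limma adjusted p = 0.0124), Dna2, a nuclease of lagging strands, at 6.54, 6.67, 6.84 and 6.27 (adjusted p = 0.0392), and Pole, the leading-strand polymerase, at 5.65, 5.21, 5.19 and 5.24 (adjusted p = 0.0392).

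Dck was highest in E and lowest in BC, as was Ccnd1, and Pole was highest in BC. Among p53 targets and antiproliferative genes 1 of 25 (4%) passed, Ddit4, an inhibitor of mTORC1 that hypoxia induces, at 5.58, 5.21, 5.64 and 6.18 (limma adjusted p = 0.026). Of the 40 tested genes of mitosis and cytokinesis outside the members, 0 passed.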

How the data were processed

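RNA of 8 cultures was read on 1 Affymetrix whole-transcript array each. The deposited table gives 1 intensity per probe set and array, made by the authors with RMA per the submitters' processing notes, with no version given in the sources used here. Values were on a linear scale, so log2 was taken with no further normalization. Of 41345 probe sets 23521 had 1 gene symbol, 1814 several and 16010 none in the platform annotation. There is no detection call, so the test was kept to symbol-bearing probe sets whose mean log2 intensity reached the median of those means, 4.05 (16.6 linear), which left 12668. Groups and experiments came from the sample titles.

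SCF was compared with medium, and the experiments with each other, by lmFit and eBayes of limma 3.58.1 (R 4.3.3), two-sided, with experiment and treatment in 1 model, and p-values were adjusted over all tested probe sets (Benjamini-Hochberg). The fit has 3 residual degrees of freedom, 7.39 with the prior, and 4 arrays per group limit the precision (median SE 0.06 on the log2 scale). The series' design text says that each experiment's cells were made together and then split. After removal of group means, the arrays of BC correlated at 0.46, of D2 at 0.41, of E at 0.42 and of I at 0.36, and at most at 0.307 with an array of another experiment. The fit was tested on simulated data. All 46 members were accounted for. A rule named 21 members, and values on all arrays were given for these except Ccnb1, which had no probe set of its own. They were also given for the 5 with the smallest unadjusted p in the limma fit (Ccnd1 and Mcm2 are in both sets). Some further members were chosen after their values were seen. From each wider list, the 3 genes with the smallest p and every gene called were named. Members, lists and rules were chosen with earlier results of these data known. Alternatives changed the replicate block, the variance trend, the filter, the array scaling and the choice of probe set, and left out each experiment.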

Additional observations from a re-analysis of the deposited data

Results flagged for a closer look

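In 2 of the 80 groups of 4 arrays checked for the tested members (2.5%), 1 array stood far from the other 3, with a gap above Dixon's 95% limit. Over all probe sets 5.11% of groups did so, and chance alone gives about 1 in 20. The SCF array of experiment E measured 7.52 for Cdk2, where the other 3 SCF arrays lay between 7.69 and 7.71. The SCF array of D2 measured 5.76 for Cdt1, where the other SCF arrays lay between 6.05 and 6.08. The medium array of D2 was also low for Cdt1, at 5.75.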

How the results depend on the processing

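SCF against medium gave 0 called probe sets and 0 called members under every alternative, without the replicate block and with the experiments as a random block too. Between experiments, 424 probe sets and 2 members were called. These numbers were 1527 and 5 with a variance trend (adding Ccnd3, Mcm5 and Pcna to Ccnd1 and Myc), 194 and 1 with no filter (Ccnd1), and 1396 and 5 with a filter at the 75th percentile (adding Ccnd3, Mcm5 and Cenpa). Leaving out 1 experiment gave 38 to 177 probe sets and 0 to 1 members. Fewer arrays and a different number of probe sets tested enter these alternatives by construction. Ccnd1 and Myc were the 2 members called without the replicate block, which here means an F test with no treatment term (522 probe sets), and also with equal array medians, quantile normalization and the mean of a gene's probe sets.

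Of 22 members followed singly, 10 changed the sign of SCF minus medium somewhere, all with a fitted size of at most 0.04. With equal array medians Cdk6 came to −0.016 and E2f1 to −0.0100, and with quantile normalization Mki67 to −9.7e-05. Equal medians moved the median of all probe sets to −0.018 and that of the members to −0.025, and quantile normalization moved them to −0.011 and −0.024. The median of the mitotic cyclins and kinases came to −0.081 with the 75th percentile filter, and that of the transcription factors and inhibitor to 0.018 without D2. The median of mitotic exit, kinetochore and spindle genes ran from −0.060 without I to 0.028 without E. Leaving out 1 experiment gave −0.024 to 0.023 for Cdk6, −0.0099 to 0.022 for E2f1, −0.043 to 0.099 for Mki67, −0.043 to 0.021 for Ccnd2 and −0.023 to 0.095 for Aurkb. It gave −0.063 to 0.054 for Plk1, −0.042 to 0.018 for Cdkn1a, −0.054 to 0.12 for Rrm2, −0.00056 to 0.051 for Cdk4 and −0.074 to 0.013 for Top2a. Of the 22, all but 1 (Aurka) moved by over 1.5 times or turned without some experiment. Of those that kept their sign and are not given above, Ccnd3 came to 0.025 without E, Myc to −0.047 without BC, Mcm5 to 0.078 without BC and 0.011 without D2, and Pcna to −0.0093 without BC. The causes were not tested. Signal over background is unknown, which limits what can be said of the members nearest the filter.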
